A study of Mus musculus with 18 samples.

Results

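RNA was sequenced from mouse tumours on the untreated side of animals whose other tumour had been ablated, and the comparison described here sets cryo-thermal therapy with anti-PD-1 against radiofrequency ablation with anti-PD-1. It covers 6 of 18 tumours, 3 in each group, chosen by their labels. The groups used are cryo-thermal therapy with anti-PD-1, radiofrequency ablation with anti-PD-1, cryo-thermal therapy alone and radiofrequency ablation alone. The 6 cryoablation tumours, with or without the antibody, entered the fit for its estimate of the spread between tumours. In every group the sequenced tumour was one that had not itself been ablated. The labels name no tumour line, mouse strain, age, antibody clone or collection day. All 18 tumours are labelled with an ablation, so there is no group of untreated animals to compare with. Of 26538 genes in the table, 12587 (47.4%) had a mean of at least 0.5 FPKM, fragments scaled by gene length and library size, over all 18 tumours and were tested.

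Radiofrequency ablation kills a lesion with heat from an alternating current, and cryo-thermal therapy freezes the lesion before heating it. PD-1 is an inhibitory receptor of activated T cells, and an antibody against it releases that inhibition. Cytotoxic CD8 T cells and NK cells that recognise a tumour secrete interferon gamma. The gamma-activated sequence (GAS) and the interferon-stimulated response element (ISRE) are short motifs in promoters of genes that interferons induce, among them genes for antigen presentation, chemokines, immunity-related GTPases and enzymes such as IDO1 and NOS2.

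Nothing in the labels ties the 3 tumours of a group to separate mice, and a p-value here reflects no more than how these samples varied, possibly for technical reasons. Depth was alike, with an estimate of about 38100000 fragments per tumour and relative depths of 0.9831 to 1.0194, and Pearson r across genes of log2(FPKM + 1) was 0.9716 to 0.9916 among the cryo-thermal plus anti-PD-1 tumours and 0.9835 to 0.9896 among the radiofrequency plus anti-PD-1 tumours. The tumours carried mesenchymal genes, with summed levels of 2190 to 2370 FPKM after cryo-thermal therapy with anti-PD-1 and 2220 to 2390 FPKM after radiofrequency ablation with anti-PD-1. Summed epithelial genes reached no more than 20.7 and 9.41 FPKM in those groups, with Cldn7 at 0 in all 6 tumours.

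One cryo-thermal plus anti-PD-1 tumour stood apart in a way that bears on every result. Replicate 2 lay between replicates 1 and 3 in 59.7% of genes, and in 99.6% of the 281 genes in which those 2 tumours were over 2-fold apart. Its profile was closest to a mixture of replicates 1 and 3 with a share of 0.3 for replicate 1, with an SD of 0.103 log2 units about it, whereas the 17 other tumours had SDs of 0.173 to 0.325 about the best mixture of their own group. Over 11586 genes with at least 20 estimated fragments, its squared distance from that mixture was compared with the variance that counting alone gives. The median ratio was 1.72, where 0.455 would be reached if only counting differed, and 2.88 to 10.48 for the other tumours. These fragment numbers are approximate. The reason for the place of replicate 2 was not tested. Whether it is a separate tumour, a pool or a shared library is unknown; if it is not separate, the group holds 2 distinct tumours, n = 3 overstates it, and the SE and p-values are too small. Counts are therefore given with and without it.

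**Figure D1:**
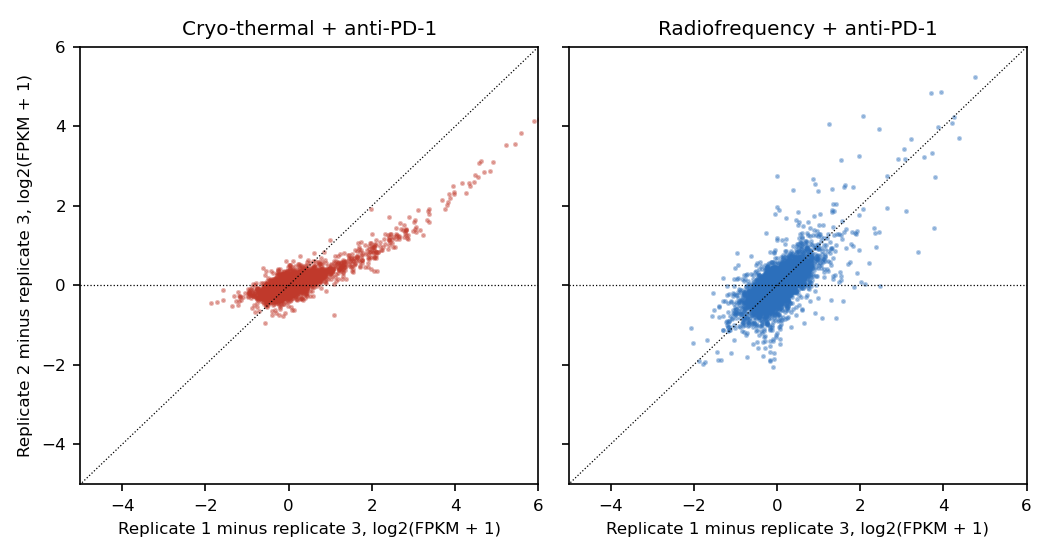
Each point is a gene past the filter; the horizontal axis gives replicate 1 minus replicate 3 and the vertical axis replicate 2 minus replicate 3, both as differences of log2(FPKM + 1), for cryo-thermal plus anti-PD-1 (left) and radiofrequency plus anti-PD-1 (right). In the left panel the genes lie on a narrow band between the horizontal and the diagonal dotted line, with an SD of 0.103 about the best mixture; in the right panel the corresponding SD is 0.243 and the points scatter to both sides.

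Surrounding tissue also differed among the 6 tumours. Summed keratinocyte genes stood at 507, 185 and 62.2 FPKM in the cryo-thermal plus anti-PD-1 tumours, against 161, 145 and 42.9 FPKM in the radiofrequency plus anti-PD-1 tumours. Summed skeletal muscle genes stood at 66.1, 41.8 and 34.6 FPKM in the cryo-thermal plus anti-PD-1 tumours, against 134, 64.2 and 125 FPKM in the radiofrequency plus anti-PD-1 tumours. Both sums overlapped between the groups. Summed hair follicle genes also overlapped, at 32.3, 9.41 and 2.19 FPKM against 3.54, 2.79 and 2.55 FPKM. Of these 16 genes 6 passed the filter, with a median log2 fold change of 1.06. It was 0.43 without cryo-thermal plus anti-PD-1 replicate 1. All 12 muscle genes past the filter had negative fold changes, with a median log2 fold change of -1.16. None passed the threshold, and 9 had an unadjusted p under 0.05, beside 17.2% of all genes in either direction. Tnnc2, fast troponin C, had 4.01, 1.19 and 0.725 FPKM against 10.9, 6.06 and 8.58 FPKM, without overlap, at a log2 fold change of -1.80 (limma adjusted p = 0.108).

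Cryo-thermal therapy plus anti-PD-1 was followed by higher levels of CD8 T cell genes, of interferon gamma and of the enzymes IDO1 and NOS2 than radiofrequency ablation with anti-PD-1, and by lower levels of Egr1, Fcrl2, the lectin Cd209f and genes of caveolae. In limma's test of log2(FPKM + 1), adjusted by Benjamini and Hochberg over all genes with a threshold of 0.05, 165 genes (1.31% of those tested) differed. Of these, 103 rose (0.818%) and 62 fell (0.493%). The fold changes of genes that rose had a median of 0.62 on the log2 scale, those of genes that fell a median of -0.45, and all genes tested a median of -0.01. Changes over 2-fold were found for 23 genes that rose and 6 that fell. The values of the 6 tumours did not overlap between the groups for any of the 165 genes, and 22.9% of all genes tested met that condition. At an unadjusted p under 0.05 there were 2162 genes (17.2%).

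These calls rested on few tumours. Without cryo-thermal plus anti-PD-1 replicate 2, 0 genes passed in limma, with a lowest adjusted p of 0.109. At an unadjusted p under 0.05 there were then 1541 genes. All 165 genes kept their sign and an unadjusted p under 0.05, at fold changes 0.85 to 1.18 times those with all tumours. That is no independent check, since the 165 were called with replicate 2 in the fit. Their groups did not overlap, so no sign could turn, and replicate 2 lay near a mixture of replicates 1 and 3. The count past the threshold was 120 without replicate 1 and 1 without replicate 3 of that group. It was 79, 2 and 22 without radiofrequency plus anti-PD-1 replicates 1, 2 and 3. With the skeletal muscle level as a covariate it was 0, with 2063 genes at an unadjusted p under 0.05.

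**Figure D2:**
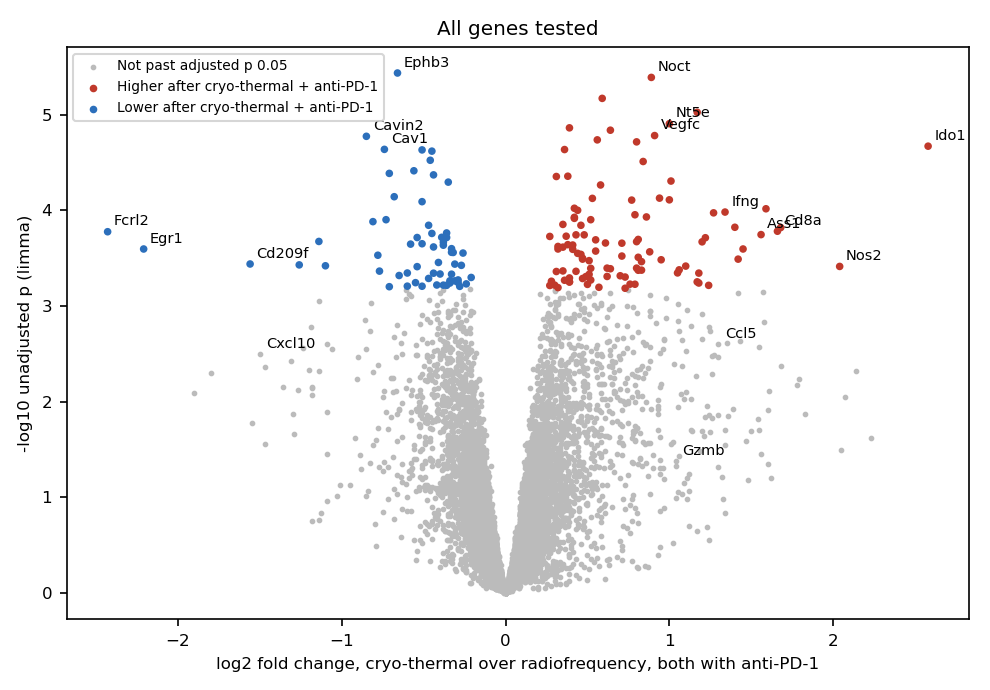
Each point is one of the genes tested, with its log2 fold change of cryo-thermal over radiofrequency, both with anti-PD-1, on the horizontal axis and -log10 of limma's unadjusted p on the vertical axis. Genes past an adjusted p of 0.05 are red where they rose (103) and blue where they fell (62); Ido1 has the highest fold change of the red points, 2.58, and Fcrl2 the lowest of the blue ones, -2.43.

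**Figure D3:**
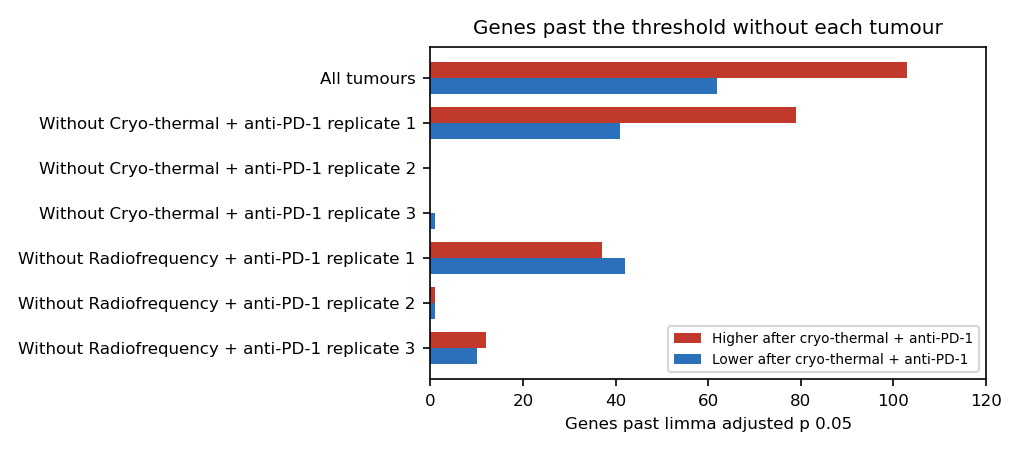
Bars give the number of genes past an adjusted p of 0.05 in limma, with red for genes that rose and blue for genes that fell after cryo-thermal therapy with anti-PD-1, with all tumours and without each of the 6 tumours. The total is 165 with all tumours, 0 without cryo-thermal plus anti-PD-1 replicate 2 and 2 without radiofrequency plus anti-PD-1 replicate 2.

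T cell genes were higher after cryo-thermal therapy with anti-PD-1. Of 15 genes for the T cell receptor, its co-receptors and signalling, 12 passed the filter, 3 rose (Cd8a, Cd8b1 and Cd3d) and none fell. Of the 12, 10 had an unadjusted p under 0.05, beside 17.2% of all genes in either direction. The median log2 fold change of the 12 was 1.06, beside -0.01 over all genes. Summed over the list, the level was 48.0, 49.8 and 52.7 FPKM in the cryo-thermal plus anti-PD-1 tumours, against 17.1, 11.3 and 22.2 FPKM in the radiofrequency plus anti-PD-1 tumours. In bulk tumours, fewer cells of a type and less RNA per cell cannot be told apart.

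Cd8a, the alpha chain of the co-receptor of cytotoxic T cells, had 4.72, 5.93 and 6.31 FPKM in the cryo-thermal plus anti-PD-1 tumours, against 1.36, 0.609 and 1.41 FPKM in the radiofrequency plus anti-PD-1 tumours. The groups did not overlap, and the log2 fold change was 1.66 ± 0.33 (SE, n = 3 each, limma adjusted p = 0.0386). Cd8b1, the beta chain of the same co-receptor, had 3.63, 4.09 and 4.13 FPKM against 1.15, 0.348 and 1.25 FPKM and rose by 1.40. Cd3d, a chain of the CD3 complex that carries the receptor's signal, had 2.80, 3.23 and 3.78 FPKM against 1.06, 0.613 and 0.927 FPKM and rose by 1.20. Both also had limma adjusted p = 0.0386, with no overlap between the groups.

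Other genes of the list did not pass. Cd3e had 3.68, 4.47 and 4.57 FPKM against 1.51, 0.594 and 1.38 FPKM, at a log2 fold change of 1.30 (limma adjusted p = 0.0932). Lat, the adaptor that links the receptor to its signalling, stood at 1.05 (limma adjusted p = 0.0583), and the kinase gene Lck at 1.06 (0.0747). Cd4, the co-receptor of helper T cells, had 1.58, 1.74 and 1.81 FPKM against 1.45, 0.683 and 0.975 FPKM. Its values did not overlap either, but its log2 fold change was 0.43 ± 0.22 (SE, n = 3 each, limma adjusted p = 0.332). The 3 genes below the filter were not tested.

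Effector genes of cytotoxic lymphocytes moved unevenly, with interferon gamma among those that rose. Ifng had 3.56, 3.66 and 2.62 FPKM in the cryo-thermal plus anti-PD-1 tumours, against 0.870, 0.468 and 0.743 FPKM in the radiofrequency plus anti-PD-1 tumours. The lowest cryo-thermal value lay above every radiofrequency value, and the log2 fold change was 1.34 ± 0.26 (SE, n = 3 each, limma adjusted p = 0.0362). Ctsw, a cathepsin of cytotoxic lymphocytes, had 4.73, 5.67 and 4.84 FPKM against 1.60, 1.19 and 2.47 FPKM and rose by 1.17 (limma adjusted p = 0.0485).

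Granzymes, the proteases of cytotoxic granules, differed among themselves. Of 12 cytotoxic effector genes 10 passed the filter, 2 rose (Ifng and Ctsw) and none fell, 6 had positive and 4 negative fold changes, and their median was 0.72. The median was 0.36 without radiofrequency plus anti-PD-1 replicate 2 and 1.13 without replicate 3 of that group. Gzmb had 23.2, 23.4 and 24.4 FPKM against 8.96, 5.86 and 24.4 FPKM: radiofrequency plus anti-PD-1 replicate 3 reached the cryo-thermal level, and the log2 fold change of 1.04 did not pass (limma adjusted p = 0.27). Gzmd had 33.4, 22.4 and 20.1 FPKM against 31.4, 27.3 and 107 FPKM, and the same radiofrequency tumour was the highest of the 6. Gzma stood at 1.78 (limma adjusted p = 0.122) and Nkg7, a granule protein of lymphocytes, at 1.57 (0.0515).

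Of 9 NK cell genes, 7 passed the filter and none passed the threshold. All 7 had positive fold changes, from 0.24 for Ncr1, the NK receptor NKp46, to 1.13 for Klrc1, with a median of 0.67. Of 7 regulatory T cell genes 5 passed the filter, with a median of 0.38 and none past the threshold. Foxp3, their defining transcription factor, was below the filter at 0.536, 0.442 and 0.296 FPKM against 0.516, 0.361 and 0.754 FPKM, which overlap. B and plasma cell genes summed to 1.27 to 1.52 FPKM after cryo-thermal therapy with anti-PD-1 and 0.585 to 0.863 FPKM after radiofrequency ablation with anti-PD-1, and 1 of the 7 in the table passed the filter.

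Some cytokine and chemokine receptor genes of lymphocytes rose. Il12rb1, a subunit of the interleukin 12 receptor, had 4.09, 6.63 and 6.69 FPKM against 1.38, 0.783 and 1.58 FPKM and rose by 1.59 ± 0.30 (SE, n = 3 each, limma adjusted p = 0.0356). Il18rap, the accessory chain of the interleukin 18 receptor, had 8.66, 7.81 and 7.41 FPKM against 4.47, 1.74 and 2.38 FPKM and rose by 1.27 (limma adjusted p = 0.0362). Il15ra, which presents interleukin 15 to T and NK cells, rose by 0.80 (limma adjusted p = 0.0457); it was picked after its values were seen. Il2rb and Il2rg, receptor chains for interleukins 2 and 15, stood at 0.89 and 0.62 and did not pass (limma adjusted p = 0.154 and 0.084). Cxcr6, a chemokine receptor of T cells resident in tissue, had 3.55, 4.04 and 3.27 FPKM against 1.49, 0.626 and 1.08 FPKM and rose by 1.18 (limma adjusted p = 0.0485). Il12rb1, Il18rap, Il15ra and Cxcr6 each had all cryo-thermal values above all radiofrequency values.

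Genes induced by interferon gamma had positive fold changes throughout the list. All 22 passed the filter and all 22 had positive fold changes. Of the 22, 18 had an unadjusted p under 0.05, beside 17.2% of all genes in either direction, but only Ido1 passed the threshold. The median log2 fold change was 1.13 with all tumours and 1.11 without cryo-thermal plus anti-PD-1 replicate 2. It fell to 0.70 without radiofrequency plus anti-PD-1 replicate 2. Summed over the list, the level was 1470, 1640 and 1690 FPKM in the cryo-thermal plus anti-PD-1 tumours, against 865, 369 and 981 FPKM in the radiofrequency plus anti-PD-1 tumours, where replicate 2 was the lowest.

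Ido1, which degrades tryptophan and limits T cell growth, had 8.73, 10.5 and 12.1 FPKM in the cryo-thermal plus anti-PD-1 tumours, against 1.13, 0.259 and 1.52 FPKM in the radiofrequency plus anti-PD-1 tumours. The groups lay far apart, with a log2 fold change of 2.58 ± 0.43 (SE, n = 3 each, limma adjusted p = 0.0189). Over 18 alternative analyses it stayed between 2.29 and 3.54 and passed the threshold in 13. The 18 include the fit with array weights, which did not converge. Ubd, an interferon-induced ubiquitin-like protein, had 81.0, 66.6 and 63.4 FPKM against 22.1, 6.40 and 23.2 FPKM, at 2.14 (limma adjusted p = 0.107). Irf1, an interferon regulatory factor, had 104, 119 and 126 FPKM against 77.1, 43.7 and 87.5 FPKM, at 0.79 (0.219). Neither Ubd nor Irf1 overlapped between the groups.

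A pair of promoter elements of the interferon pathway is shown for 5 related or neighbouring genes of chromosome 11, which all had higher values. Promoters, 250 bases before to 50 bases after the start, were taken from RefSeq (build GRCm38.p6) and searched for GAS (TTCNNNGAA, which reads the same on both strands) and ISRE (GAAANNGAAA, or TTTCNNTTTC on the other strand). GAS was found in 8.3% and ISRE in 3.4% of 32851 promoters. Counted by gene, as in the shares that follow, they were found in 8.4% and 3.9% of 10050 tested genes with a promoter. Of the 22 interferon gamma response genes 15 had a promoter in the table, 60.0% with GAS and 66.7% with ISRE. Among genes that rose, 77 of 103 had a promoter, 11.7% with GAS and 9.1% with ISRE; among genes that fell, 49 of 62 had one, 8.2% with GAS and 2.0% with ISRE. A match is a description of the letters and does not show binding.

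In 5 promoters (0.015%) an ISRE began 11 bases after the start of a GAS, a spacing chosen after the sequences were seen. The 5 genes encode immunity-related GTPases or lie near such genes, in separate clusters on chromosome 11. Each line gives 60 bases on the gene's strand, 5′ to 3′, with GAS as the first run of capitals and ISRE as the second.
Gm12185, chr11:48927229-48927288, minus strand: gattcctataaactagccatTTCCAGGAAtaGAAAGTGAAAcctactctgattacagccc
Tgtp1, chr11:48992295-48992354, minus strand: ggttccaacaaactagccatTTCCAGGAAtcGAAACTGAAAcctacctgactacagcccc
Tgtp2, chr11:49064254-49064313, minus strand: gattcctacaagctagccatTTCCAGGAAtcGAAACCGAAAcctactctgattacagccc
Igtp, chr11:58199491-58199550, plus strand: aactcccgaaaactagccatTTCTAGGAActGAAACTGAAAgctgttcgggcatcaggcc
Irgm2, chr11:58214882-58214941, plus strand: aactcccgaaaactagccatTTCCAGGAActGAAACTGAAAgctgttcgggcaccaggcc

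All 5 genes had higher values in every cryo-thermal plus anti-PD-1 tumour than in any radiofrequency plus anti-PD-1 tumour, as did 11.8% of all genes tested. The 5 are related or neighbouring genes, so they are not 5 separate observations on the pair of motifs. Gm12185, a predicted protein-coding gene, had 5.97, 7.38 and 7.28 FPKM against 2.48, 0.994 and 2.61 FPKM and rose by 1.42 (limma adjusted p = 0.0424). Igtp had 121, 152 and 170 FPKM against 70.2, 24.2 and 78.7 FPKM, at 1.50 (limma adjusted p = 0.197). Tgtp1 and Tgtp2 stood at 1.60 and 1.11 and Irgm2 at 1.04, with adjusted p of 0.28, 0.322 and 0.283. Tgtp1 and Tgtp2 are near copies, so the counting could split their reads and their separate levels are uncertain.

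Antigen presentation genes had higher levels as lists, without a call for any single gene. Of 18 genes for MHC class I presentation 17 passed the filter, and all 17 had positive fold changes, with a median of 0.83. None passed the threshold, and 16 had an unadjusted p under 0.05, beside 17.2% of all genes in either direction. H2-K1, a class I heavy chain, had 1290, 1540 and 1650 FPKM against 910, 675 and 1060 FPKM, at 0.77 (limma adjusted p = 0.136). Tap1, which carries peptides into the endoplasmic reticulum, stood at 1.01 (0.224), and B2m, the light chain, at 0.35 (0.358). Of 8 genes for MHC class II presentation 7 passed the filter and none passed the threshold, with a median of 1.14. Cd74, the invariant chain, had 516, 955 and 1160 FPKM against 322, 326 and 411 FPKM, at 1.24 (0.165).

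For antiviral genes of the type I interferon response no gene passed the test. All 23 of the list found in the table passed the filter, and none had an unadjusted p under 0.05. Their median was 0.18, with 17 positive and 6 negative fold changes. It was -0.01 without radiofrequency plus anti-PD-1 replicate 2 and 0.41 without replicate 3 of that group. Ifit1 had 7.63, 7.37 and 6.13 FPKM against 8.98, 6.67 and 9.97 FPKM, and Isg15 had 34.3, 34.0 and 29.5 FPKM against 32.8, 22.4 and 42.7 FPKM, both with overlapping groups. Bst2, which tethers virus particles to the cell, was at 0.73 (limma adjusted p = 0.344). Ifitm1, an interferon-induced membrane protein outside the list, had 78.0, 64.4 and 60.7 FPKM against 25.0, 17.1 and 19.4 FPKM. It rose by 1.68 ± 0.34 (SE, n = 3 each, limma adjusted p = 0.0386), with no overlap.

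Inhibitory checkpoint genes had higher values without passing the threshold. Of 10 genes 8 passed the filter, all 8 with positive fold changes and a median of 0.83. Of the 8, 6 had an unadjusted p under 0.05, beside 17.2% of all genes in either direction. Pdcd1, which encodes PD-1, had 2.90, 3.59 and 3.94 FPKM against 1.55, 0.706 and 1.01 FPKM, at 1.11 ± 0.28 (SE, n = 3 each, limma adjusted p = 0.0626). Cd274, which encodes its ligand PD-L1, had 15.5, 18.7 and 21.2 FPKM against 7.63, 5.15 and 13.2 FPKM, at 1.09 (limma adjusted p = 0.139). Neither overlapped between the groups.

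**Figure D4:**
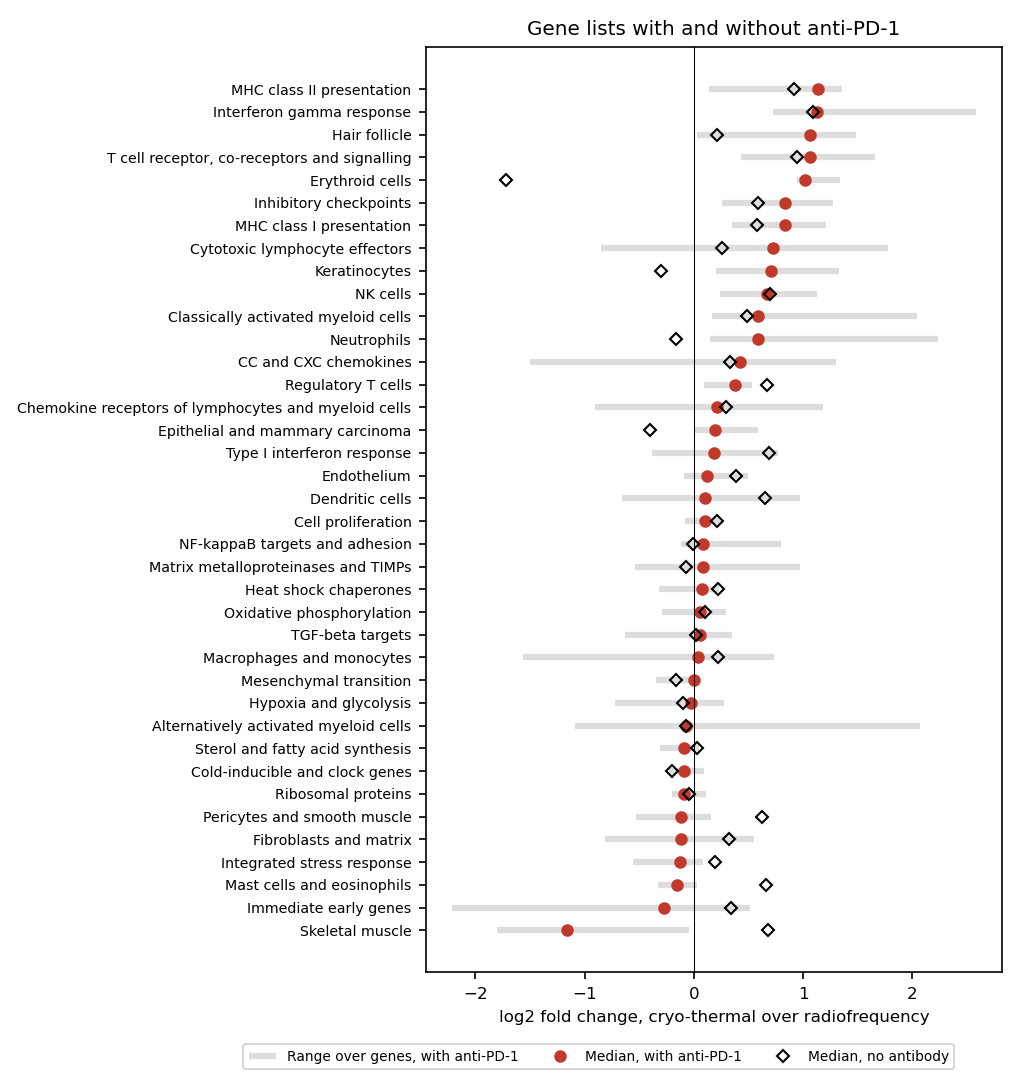
For each gene list with at least 5 genes past the filter, except the 12 genes picked for the study's title, the red point is the median log2 fold change of cryo-thermal over radiofrequency with anti-PD-1, the grey bar the range over its genes, and the open diamond the median of the same contrast without the antibody. MHC class II presentation (1.14) and the interferon gamma response (1.13) have the highest medians among the lists drawn with the antibody, and skeletal muscle (-1.16) the lowest.

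Myeloid genes moved both ways, with enzymes of nitric oxide synthesis higher and CD209 lectins lower. Nos2, whose product makes nitric oxide in activated macrophages, had 15.9, 21.3 and 23.5 FPKM in the cryo-thermal plus anti-PD-1 tumours, against 2.91, 2.96 and 7.56 FPKM in the radiofrequency plus anti-PD-1 tumours. The groups did not overlap, and the log2 fold change was 2.04 ± 0.45 (SE, n = 3 each, limma adjusted p = 0.0451). Ass1, which recycles citrulline towards arginine, the substrate of that enzyme, had 26.0, 33.5 and 43.7 FPKM against 10.7, 9.05 and 12.8 FPKM and rose by 1.56 (limma adjusted p = 0.0386). Arg1, the arginase that competes for arginine, had 348, 431 and 465 FPKM against 171, 208 and 323 FPKM, at 0.86 (0.0861).

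Of 12 genes for classical activation of myeloid cells 9 passed the filter, 1 rose (Nos2) and all 9 had positive fold changes, with a median of 0.59. Of 10 for alternative activation 9 passed the filter and none passed the threshold, with a median of -0.07, which was 0.24 without radiofrequency plus anti-PD-1 replicate 2. Within that list Chil3, a chitinase-like protein, had 43.2, 108 and 144 FPKM against 27.2, 11.6 and 25.7 FPKM, at 2.07 (limma adjusted p = 0.136), and Cd163, a scavenger receptor, had 0.646, 0.284 and 0.0587 FPKM against 1.88, 3.52 and 0.657 FPKM, at -1.09 (0.159).

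Among 18 genes of macrophages and monocytes past the filter, 1 rose and 1 fell, with a median of 0.04. Cd14, the lipopolysaccharide co-receptor, had 43.9, 38.3 and 36.0 FPKM against 21.1, 27.7 and 27.5 FPKM and rose by 0.62 (limma adjusted p = 0.0457). Cd209f, a C-type lectin, had 1.51, 0.501 and 0.0961 FPKM against 4.87, 5.11 and 1.95 FPKM and fell by 1.56 (limma adjusted p = 0.0449). Its neighbour in the family, Cd209g, had 0.849, 0.470 and 0.177 FPKM against 1.79, 1.96 and 0.975 FPKM and fell by 0.78 (0.0407). Both genes were lower in every cryo-thermal tumour, and their similar sequences make the split of reads between them uncertain. Adgre1, which encodes the macrophage antigen F4/80, stood at -0.32 and Csf1r, the receptor for macrophage growth factor, at 0.00, and neither passed.

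Other genes of leukocytes fell. Fcrl2, an Fc receptor-like gene, had 2.85, 0.878 and 1.07 FPKM in the cryo-thermal plus anti-PD-1 tumours, against 14.8, 22.4 and 5.33 FPKM in the radiofrequency plus anti-PD-1 tumours. It had the lowest fold change of the genes that passed, -2.43 ± 0.49 on the log2 scale (SE, n = 3 each, limma adjusted p = 0.0386), with no overlap. Alox5, which makes leukotriene precursors in myeloid cells, had 0.786, 0.421 and 0.545 FPKM against 2.56, 2.96 and 1.73 FPKM and fell by 1.10 (0.0451).

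Chemokines moved both ways, and none of the 23 past the filter passed the threshold; their median was 0.42, and 0.19 without cryo-thermal plus anti-PD-1 replicate 1. Ccl5, a chemokine for T cells that the study's title names, had 6.49, 9.51 and 8.70 FPKM in the cryo-thermal plus anti-PD-1 tumours, against 2.59, 2.63 and 2.96 FPKM in the radiofrequency plus anti-PD-1 tumours. Its groups did not overlap, and its log2 fold change was 1.30 ± 0.36 (SE, n = 3 each, limma adjusted p = 0.0859). Cxcl9, a ligand of CXCR3, had 30.6, 31.7 and 34.6 FPKM against 6.36, 19.7 and 17.1 FPKM, at 1.25 (0.198). Cxcl10, which shares that receptor, had 235, 144 and 57.8 FPKM against 368, 357 and 346 FPKM, at -1.50 (0.0926). Thus Cxcl9 and Cxcl10 lay on opposite sides of 0, and every cryo-thermal value was below every radiofrequency value for Cxcl10. Cxcl16, the ligand of CXCR6, stood at 0.98 (0.065). Itgam, the CD11b chain of myeloid integrins, had 26.6, 29.0 and 30.7 FPKM against 19.5, 20.6 and 20.7 FPKM, at 0.48 (0.183). Of the 12 genes picked for the study's title, 3 rose (Cd8a, Ifng and Nos2), with a median of 1.18.

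Neutrophil genes were highest in 1 tumour, and none of the 7 past the filter passed the threshold. S100a8, a calprotectin subunit, had 142, 42.1 and 9.04 FPKM against 5.17, 21.1 and 5.39 FPKM, which overlap, at 2.05 (limma adjusted p = 0.239). The same order of replicates was seen in the keratinocyte sum of the cryo-thermal plus anti-PD-1 tumours, 507, 185 and 62.2 FPKM, and keratinocytes also express this gene; the part of skin in the value was not tested. The keratinocyte list itself had a median of 0.71, which ran from -0.29 without cryo-thermal plus anti-PD-1 replicate 1 to 1.69 without replicate 3 of that group, and was -0.03 without radiofrequency plus anti-PD-1 replicate 3.

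Egr1, a zinc finger factor switched on within minutes of growth or stress signals, had 29.8, 20 and 17.0 FPKM in the cryo-thermal plus anti-PD-1 tumours, against 59.9, 163 and 115 FPKM in the radiofrequency plus anti-PD-1 tumours. The groups did not overlap, and it fell by 2.21 ± 0.47 on the log2 scale (SE, n = 3 each, limma adjusted p = 0.0386). All 16 immediate early genes passed the filter, Egr1 alone passed the threshold, and the median was -0.27. Of the 16, 7 had lower values at an unadjusted p under 0.05, beside 17.2% of all genes in either direction. Fosb had 9.72, 4.77 and 2.83 FPKM against 14.1, 43.9 and 17.0 FPKM, at -1.90 (0.132), and Ier2 stood at -1.14 (0.107). Junb, another AP-1 subunit, overlapped between the groups, with 124, 113 and 112 FPKM against 85.9, 128 and 111 FPKM. Radiofrequency plus anti-PD-1 replicate 2 had the highest list sum, 1160 FPKM, and the median was -0.17 without it and -0.44 without replicate 1 of that group.

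Caveolae, membrane pits built of caveolins and cavins, had lower RNA of both kinds of coat protein. Cav1, the main caveolin, had 118, 96.9 and 90.8 FPKM against 175, 164 and 171 FPKM and fell by 0.74 ± 0.12 (SE, n = 3 each, limma adjusted p = 0.0189). Cavin2 had 6.17, 5.78 and 5.29 FPKM against 10.9, 10.8 and 11.9 FPKM and fell by 0.85 (limma adjusted p = 0.0189). Cavin1 had 110, 103 and 105 FPKM against 151, 154 and 130 FPKM and fell by 0.44 (0.0463). In a family list written after the values were seen, all 7 caveola genes past the filter had negative fold changes, with a median of -0.44, and these 3 fell. None of the 3 overlapped between the groups.

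Cox6a2, the cytochrome oxidase subunit of heart and skeletal muscle, had 2.48, 2.27 and 2.29 FPKM against 4.71, 6.64 and 8.10 FPKM and fell by 1.14 (limma adjusted p = 0.0386). The skeletal muscle sums given above were also lower in the cryo-thermal plus anti-PD-1 tumours except for 1 overlap, and the part of muscle tissue in this value was not tested. Other genes that fell were Ak5, an adenylate kinase, by 0.81, Akr1c13, an aldo-keto reductase, by 0.77, and Prss23, a serine protease, by 0.73. Lrrn3, a neuronal leucine-rich repeat protein, fell by 0.71. Igfbp6, which binds insulin-like growth factor 2, had 80.8, 83.8 and 90.9 FPKM against 117, 133 and 139 FPKM and fell by 0.60 (limma adjusted p = 0.0463). Ephb3, a receptor for ephrin B ligands, had 2.07, 2.14 and 2.60 FPKM against 4.21, 4.75 and 3.60 FPKM and fell by 0.66 (0.0189). H2bc8, a histone of the clustered genes, fell by 1.26 (0.0451); copies of such histones are much alike, so its reads may be shared.

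**Figure D5:**
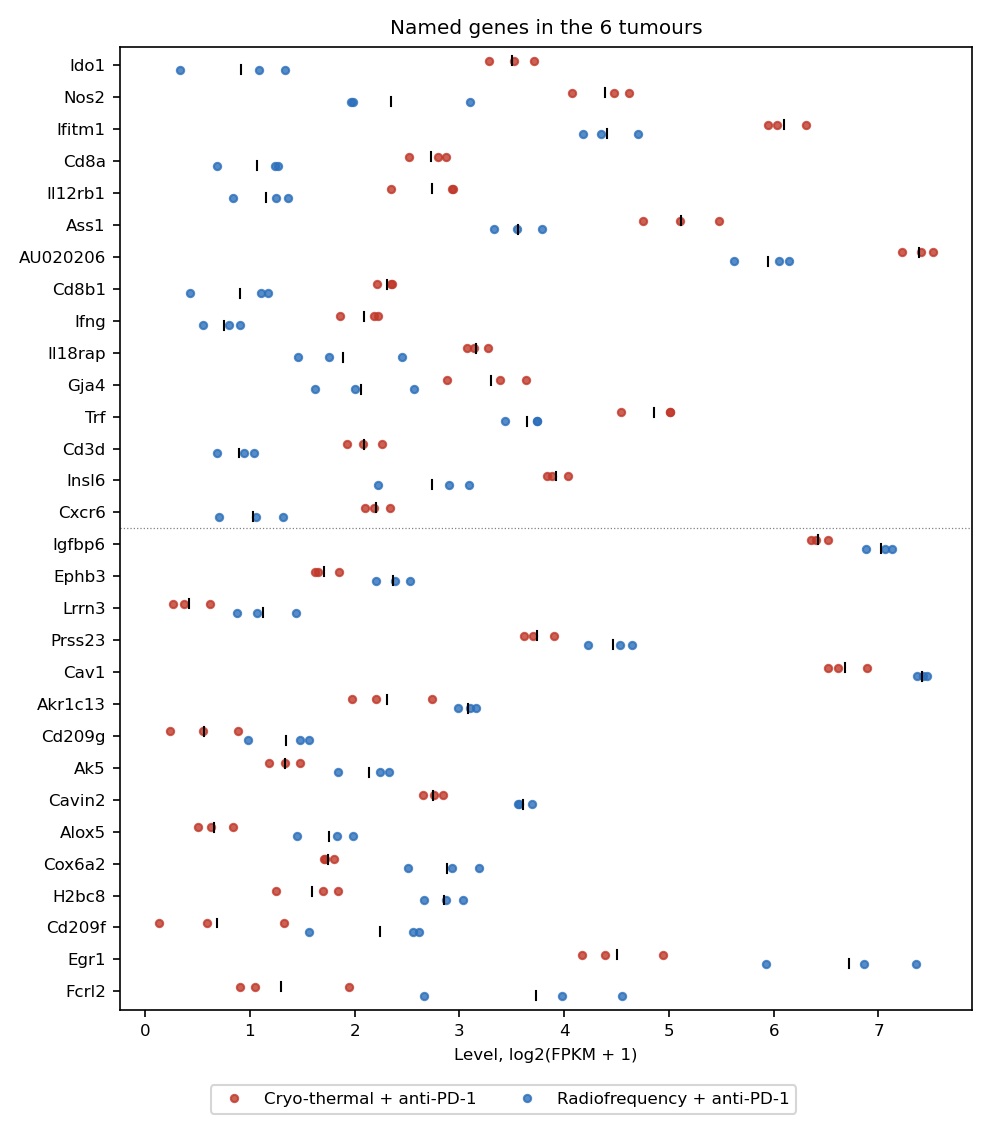
Levels as log2(FPKM + 1) in each tumour for the 15 genes with the highest and the 15 with the lowest fold changes among those past the threshold under the naming rule, red for cryo-thermal plus anti-PD-1 and blue for radiofrequency plus anti-PD-1, with a black tick at each group's mean. The naming rule required that the red and the blue points of a row do not overlap. Rows run from Ido1 (2.58) at the top to Fcrl2 (-2.43) at the bottom.

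Several genes outside immunity rose. Trf, the iron carrier transferrin, had 22.3, 31.2 and 31.3 FPKM in the cryo-thermal plus anti-PD-1 tumours, against 12.4, 12.4 and 9.85 FPKM in the radiofrequency plus anti-PD-1 tumours, and rose by 1.22 (limma adjusted p = 0.0386). Gja4, the gap junction protein connexin 37 of arterial endothelium, had 6.35, 9.46 and 11.4 FPKM against 3.01, 2.08 and 4.91 FPKM and rose by 1.24 (0.0485). Of the 12 endothelial genes on the list none passed, with a median of 0.12. Insl6, a relaxin-family peptide, had 13.8, 15.4 and 13.3 FPKM against 7.53, 3.67 and 6.49 FPKM and rose by 1.18 (0.0463). AU020206, a non-coding transcript, had 149, 169 and 183 FPKM against 69.9, 48.3 and 65.4 FPKM and rose by 1.45 (0.0386). Tgfbi, a matrix protein induced by TGF-beta, had 276, 319 and 334 FPKM against 241, 252 and 234 FPKM and rose by 0.35 (0.046); it was the 1 gene of 7 TGF-beta targets that passed. None of these 5 genes overlapped between the groups.

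Lists of broad cell programmes, measured in bulk tumours, had medians near that of all genes, and none of their genes passed. The median was 0.10 over 19 proliferation genes, -0.03 over 20 genes of hypoxia and glycolysis, 0.06 over 20 of oxidative phosphorylation and -0.13 over 14 of the integrated stress response. It was 0.07 over 15 heat shock chaperones and -0.12 over 15 genes of fibroblasts and matrix. Dendritic cell genes had a median of 0.10, with 11 of 16 past the filter. Erythroid genes had a median of 1.02, with sums of 318, 138 and 81.2 FPKM against 95.3, 45.9 and 87.0 FPKM, which overlap; the median was 0.59 without cryo-thermal plus anti-PD-1 replicate 1.

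The same ablations without the antibody were compared in 6 other tumours. Between cryo-thermal therapy and radiofrequency ablation alone, 1 gene (0.00794%) passed in limma, Ccl11, and 1712 (13.6%) had an unadjusted p under 0.05. Ccl11, a chemokine for eosinophils, averaged 5.87 ± 2.62 FPKM after cryo-thermal therapy and 1.08 ± 0.0998 FPKM after radiofrequency ablation (SD, n = 3 each; limma adjusted p = 0.0322). Its mean with anti-PD-1 was 8.12 ± 0.557 FPKM after cryo-thermal therapy and 4.68 ± 0.186 FPKM after radiofrequency ablation, at 0.68 (limma adjusted p = 0.136). Of the 165 genes that differed with the antibody, 123 (74.5%) had the same sign without it, as did 63.7% of all genes.

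The difference of the 2 contrasts, with minus without the antibody, passed for 0 genes in limma (0.0%), and 910 (7.23%) had an unadjusted p under 0.05. For T cell genes the median log2 fold change was 1.06 with the antibody and 0.94 without it, and for interferon gamma response genes 1.13 and 1.09. Cd3d averaged 2.27 ± 1.06 FPKM after cryo-thermal therapy alone and 0.504 ± 0.218 FPKM after radiofrequency ablation alone (SD, n = 3 each). Its log2 fold change without the antibody was 1.08, and the difference of the contrasts was 0.12 ± 0.35 (SE, limma adjusted p = 0.973). The difference was 0.56 for Cd8a, 0.40 for Cd8b1 and 0.11 for Ctsw. Without the antibody Ido1 stood at 1.52, Nos2 at 0.85, Ifng at 0.82 and Ifitm1 at 0.59. Their differences were 1.07, 1.19, 0.52 and 1.09, none past the threshold (limma adjusted p = 0.766, 0.749, 0.846 and 0.638).

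Type I interferon genes had a median of 0.18 with the antibody and 0.69 without it, and immediate early genes -0.27 and 0.34. Egr1 averaged 89.2 ± 68.1 FPKM after cryo-thermal therapy alone and 55.6 ± 23 FPKM after radiofrequency ablation alone (SD, n = 3 each). Its log2 fold change without the antibody was 0.49, and the difference was -2.70 ± 0.66 (SE, limma adjusted p = 0.294). Muscle genes had medians of -1.16 with and 0.68 without the antibody, and erythroid genes 1.02 and -1.72.

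The lowest adjusted p of the difference was 0.14, for Cavin2 and Plxnb1. Cavin2 averaged 16.2 ± 0.955 FPKM after cryo-thermal therapy alone and 12.5 ± 2.03 FPKM after radiofrequency ablation alone (SD, n = 3 each), the opposite order to that with the antibody, and its difference was -1.21 ± 0.20 (SE). Plxnb1, a semaphorin receptor, had 1.64, 1.57 and 1.53 FPKM against 0.800, 0.982 and 0.633 FPKM with the antibody and rose by 0.52 (limma adjusted p = 0.0457). Without the antibody it averaged 0.528 ± 0.220 and 1.09 ± 0.189 FPKM (SD, n = 3 each), and the difference was 0.98 ± 0.16 (SE).

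Vegfc, a growth factor of lymphatic vessels, had 11.3, 11.8 and 11.5 FPKM with cryo-thermal therapy with anti-PD-1, against 5.52, 5.59 and 5.89 FPKM with radiofrequency ablation with anti-PD-1. It rose by 0.91 ± 0.15 (SE, n = 3 each, limma adjusted p = 0.0189) and passed in 14 of 18 alternative analyses. Those 18 include the fit with array weights, which did not converge. Without the antibody it averaged 6.50 ± 1.08 and 7.09 ± 1.07 FPKM after cryo-thermal therapy and radiofrequency ablation (SD, n = 3 each), and the difference was 1.02 (limma adjusted p = 0.221). Tmem132a, Lrch1 and Zfp821 had differences of 0.64, 0.43 and 0.54. Anxa3, Ephb3, Pbp2 and Camkk1 had differences of -0.58, -0.63, -0.96 and -0.50, with adjusted p of 0.164 to 0.221 over these 7 genes.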

How the data were processed

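The authors deposited 1 table of FPKM values, with a column for each tumour and 0 pairs of identical columns. The submitters' processing notes list HTSeq 0.11.2. No source used here gives the aligner, genome build, annotation release or strand setting, so overlapping and antisense genes cannot be told apart. Per the labels, TRIzol and silica columns were used for RNA extraction. The table holds no fragment counts. Depth was estimated from the steps of low FPKM values and GENCODE vM21 exon lengths and is approximate. It entered the counting variance about the mixtures, and no interval was computed from it.

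The deposited FPKM values were analysed as log2(FPKM + 1), which understates fold changes of low genes. Genes with a mean of at least 0.5 FPKM were kept. The model, run in limma 3.58.1 under R 4.3.3, gave each of the 6 groups a mean and used all 18 tumours (trended, moderated variances, 2-sided, Benjamini-Hochberg over 12587 genes, threshold 0.05). The planned count test was not used, since the table holds FPKM. The contrasts were cryo-thermal over radiofrequency with anti-PD-1, the same without it, and their difference. With 3 against 3, an exact permutation test of 1 value cannot give a p under 0.1. SD and SE are over tumours and from limma; a bare value beside a gene is its log2 fold change, and values without overlap are separated in all 6 tumours. The fit was checked on simulated data.

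Of 575 entries in 43 gene lists 566 matched by symbol, 4 by gene number and 5 were not found. The comparison, the lists and the tests were chosen with earlier results of these data known. Named genes are the 15 with the highest and the 15 with the lowest fold changes past the threshold without overlap (predicted genes and clones left out), at most 4 passing members per list, 12 genes picked for the study's title, and the 5 with the smallest p of the difference in each direction; list members given without passing, and Gm12185, were picked after their values were seen. Alternatives were the pseudocount, the filter, TPM scaling, quantile normalization, array weights, a replicate block, tissue levels as covariates, fits without skin-rich tumours or of the contrast's groups alone, and leaving out each tumour. Python 3.11.15, pandas 2.3.3 and numpy 2.4.6 were used for the other steps. Results for some genes are not reported here.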

Additional observations from a re-analysis of the deposited data

How the results depend on the processing

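With 3 tumours a group, the calls of single genes depended on the setting more than the fold changes did. Over the alternatives, the named genes, many of them picked by the main fit, kept their direction in every fit. Of their values, 515 were on the same side of the threshold as in the main analysis, 19 newly passed and 362 no longer passed. Where the main analysis called 165 genes with anti-PD-1, 88 passed with a pseudocount of 0.1, 74 with no filter (39 of them among the 165), 64 with TPM scaling, 69 with a replicate block (46 higher, 23 lower, 62 among the 165), 88 with the skin level as covariate, 485 with the erythroid level, 0 with the skeletal muscle level, 71 in a fit of only the 2 groups (85.9% higher, against 62.4%) and 2154 with array weights. The array weights did not converge, and gave cryo-thermal plus anti-PD-1 replicate 2 a weight of 39.7. That fit is counted among the alternatives in the tallies above. A minimum mean of 1 FPKM gave 153 genes and quantile normalization 164, with 152 and 144 of them among the 165. Leaving out the skin-rich tumours, among them cryo-thermal plus anti-PD-1 replicate 1, gave 190, with 93 among the 165. Leaving out 1 of the 6 tumours gave 0 to 120.

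Without the antibody, the count of 1 became 0 with the replicate block, the erythroid or muscle level, without the skin-rich tumours and in a fit of 2 groups, 2 with the skin level and 1373 with array weights; leaving out 1 tumour gave 0 to 278. For the difference, the count of 0 became 2 with no filter, 375 with array weights, and 1 with the muscle level, without the skin-rich tumours and in a fit of the 4 groups alone; leaving out 1 tumour gave 0 to 4. The median of ribosomal genes turned to 0.03 with the muscle level and that of erythroid genes to -0.05 with the erythroid level. Without 1 tumour, the medians of 13 of 38 lists turned sign: keratinocytes (0.71) and lists with medians of -0.15 to 0.19, among them endothelium (0.12, at lowest -0.14) and alternative myeloid activation (-0.07, at highest 0.24). The median of 4 adipocyte genes, -0.07, ran from -0.85 to 0.57. Of the list medians under every alternative, 735 moved by less than the SE of a typical member, and the rest by more.

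Replicate numbers were shared between groups without a stated pairing. Deviations from group means of same-numbered tumours with anti-PD-1 correlated at 0.502, 0.058 and 0.591, each the highest for its cryo-thermal tumour. Cryo-thermal replicate 1 with radiofrequency replicate 3 gave -0.579, and replicate 3 with replicate 1 gave -0.489. The value of 0.058 says little, since cryo-thermal plus anti-PD-1 replicate 2 lay near a mixture of its group. Without the antibody, same-numbered tumours gave -0.077, -0.047 and 0.044. The main fit did not pair the tumours, and whether the numbers mark a pairing or a shared batch is unknown. Apart from the counting variance about the mixtures, no limit from depth was computed, since fragment counts are only estimated. The cause of these changes was not tested.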

Other observations

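Some small families were listed after the values were seen, so their counts describe these tumours and no more. Of 9 genes of nitric oxide, arginine and polyamine metabolism 3 rose (Nos2, Ass1 and Azin2), with a median log2 fold change of 0.73. Of 8 genes of the interleukin 12, 15 and 18 systems past the filter 3 rose (Il12rb1, Il18rap and Il15ra), with a median of 0.71. Of 3 tryptophan-degrading genes past the filter Ido1 rose, with a median of 0.64. In purine signalling, Nt5e, the ecto-enzyme CD73 that makes adenosine, had 18.5, 16.3 and 14.4 FPKM in the cryo-thermal plus anti-PD-1 tumours, against 6.61, 7.10 and 9.61 FPKM in the radiofrequency plus anti-PD-1 tumours, and rose by 1.00 ± 0.16 (SE, n = 3 each, limma adjusted p = 0.0189). Entpd1, the ecto-enzyme CD39 that acts before it, had 7.72, 7.74 and 7.72 FPKM against 5.13, 4.50 and 4.17 FPKM, at 0.64 (limma adjusted p = 0.0932). Of 8 adenosine genes past the filter 2 rose, Nt5e and Ampd2, and the median was 0.01. Among leukotriene genes, Ltb4r1, the leukotriene B4 receptor, had 5.79, 6.06 and 5.86 FPKM against 3.10, 2.14 and 3.79 FPKM and rose by 0.81 (0.0418), while Alox5 fell; the median of 6 genes was 0.02.

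Of 10 VEGF ligands and receptors past the filter Vegfc alone passed the threshold, and Vegfa had 66.6, 88.2 and 94.2 FPKM against 60.3, 86.5 and 115 FPKM, which overlap. Of 34 histone genes past the filter 3 fell (H2bc8, H2bc21 and H2ac19), 24 had negative fold changes and the median was -0.12. H2bc21 had 7.47, 6.91 and 6.83 FPKM against 10.3, 10.4 and 10.6 FPKM and fell by 0.51 (limma adjusted p = 0.0319). Noct, a deadenylase-like enzyme with a daily rhythm, had 36.8, 42.9 and 44.5 FPKM against 23.2, 20.8 and 21.3 FPKM and rose by 0.89 (0.0189). Of the 165 genes that differed 12 (7.27%) were non-coding, as were 5.29% of those tested.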
